A study of Mus musculus with 4 samples.

Results

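Apolipoproteins are the protein components of plasma lipoproteins, and transcripts of 10 of their genes were examined in 4 mouse livers. The genes were Apoa1, Apoa2, Apoa4, Apoa5, Apob, Apoc1, Apoc2, Apoc3, Apoe and Apom, taken by name from the 21959 gene rows of the deposited table. All 10 had a row and all 10 were among the 12657 genes with enough reads to be tested. The livers were wild type and carried acute-on-chronic liver failure (ACLF), a sudden failure of a liver that was already chronically diseased. The saline group held 2 livers of mice that received saline, and the baicalein group 2 livers of mice that received baicalein, a plant flavone. ACLF is common to both groups, so each comparison is between treatments of diseased livers. The labels give neither the agents that caused the disease nor the dose, sex, age or strain, and they do not say that each liver came from its own animal. The p-values are thus set against the spread of these samples alone, and that spread may be technical.

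Hepatocytes make most plasma apolipoproteins. Apob is the large structural protein on which the liver builds very low density lipoprotein, and Apoa1 and Apoa2 are the main proteins of high density lipoprotein. Apoe is the ligand by which receptors clear remnant particles, and Apoc2, Apoc3 and Apoa5 activate, inhibit and enhance the removal of triglyceride by lipoprotein lipase. Many of these genes sit in clusters, with Apoa1, Apoc3, Apoa4 and Apoa5 on chromosome 9 and Apoe, Apoc1, Apoc4 and Apoc2 on chromosome 7.

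Libraries held 13976440 to 18731616 reads. The hepatocyte genes checked (Alb, Ttr, Ahsg, Hpx, Fgb and Serpinc1) were abundant in every liver, at a summed 77468 to 114323 CPM (counts scaled to a common library size). Some differences between the livers, as in the muscle and bile duct sums, did not follow the groups, and others, as in the Y-linked genes, did. The 12 skeletal muscle genes checked summed to 6399 CPM in saline 1 and 2076 CPM in baicalein 2, against 1.46 CPM in saline 2 and 1.10 CPM in baicalein 1. The 4 bile duct genes checked summed to 105 CPM in baicalein 2 and to 8.94 to 20.4 CPM in the other livers. The Y-linked genes Ddx3y, Kdm5d, Eif2s3y and Uty together summed to 48.2 and 61.0 CPM in the saline livers and to 0.138 and 0.0499 CPM in the baicalein livers, so for every result that follows, treatment and this sex-linked pattern cannot be told apart. In whole liver, fewer cells of a type and less RNA per cell cannot be told apart either.

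The liver apolipoprotein transcripts were dominated by 3 genes. Levels between genes were compared per length, as the authors' FPKM, which divide reads by the length of the gene and by the depth of the library. Apoe was the most abundant at 7558 to 8157 FPKM over the 4 livers and ranked 3 or 4 among all genes of each liver. Apoa1 followed at 5031 to 7610 FPKM, a range that touched that of Apoe although Apoe was higher in 4 of 4 livers. Apoa2 came next at 6152 to 6899 FPKM, inside the range of Apoa1. Apoa1 stood above Apoa2 in 2 of the 4 livers, the saline pair, and below it in the baicalein pair. Apoc1, a small protein that slows remnant uptake, lay below them at 2150 to 2380 FPKM, and Apoc3 below that at 1169 to 1391 FPKM, neither overlapping its neighbours in the order. Apom, the carrier of sphingosine 1-phosphate on high density lipoprotein, reached 232 to 291 FPKM. Apoa5 reached 168 to 236 FPKM and overlapped it narrowly, although Apom was above Apoa5 in 4 of 4 livers. Apob came next at 71.9 to 126 FPKM, the level per base of a transcript 13934 bases long. Apoc2 at 1.67 to 3.83 FPKM and Apoa4 at 1.97 to 2.80 FPKM were far below the others and overlapped each other.

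**Figure D1:**
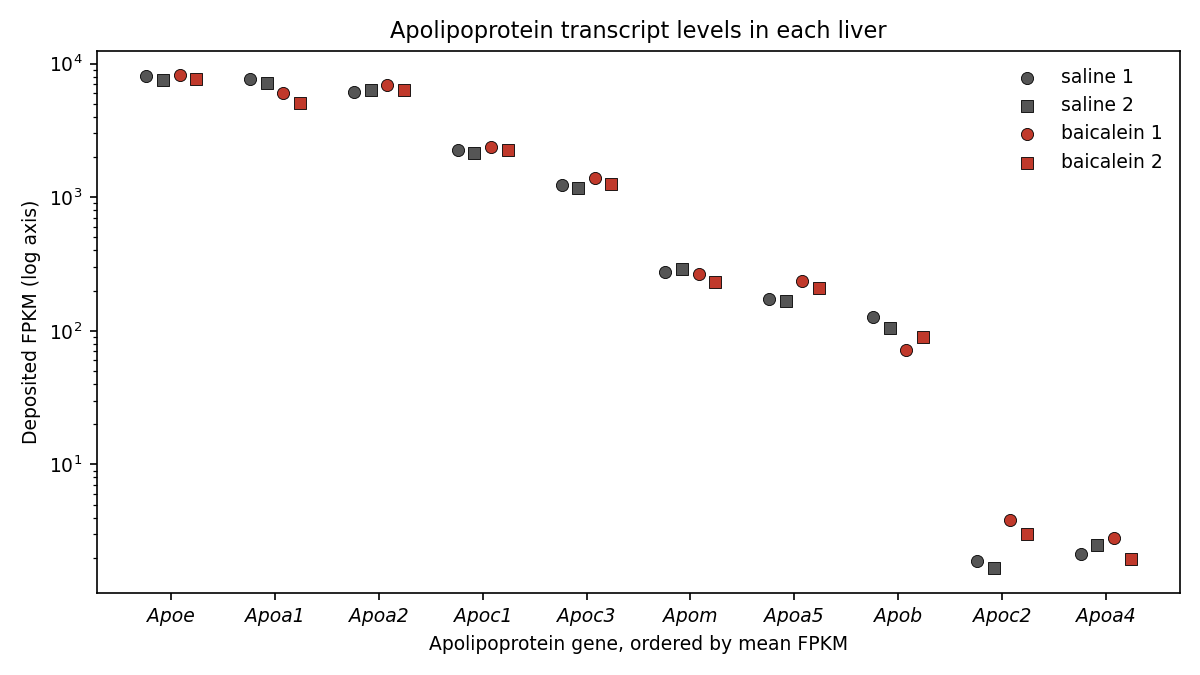
Deposited FPKM (vertical log axis) of the 10 apolipoprotein genes, ordered from left by mean, with 1 point for each liver (grey saline, red baicalein, circles for replicate 1 and squares for replicate 2). Apoe, Apoa1 and Apoa2 lie between 5031 and 8157 FPKM in every liver, and Apoc2 and Apoa4 below 3.83 and 2.80 FPKM.

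Together the 10 genes took 3.55 and 3.34% of all reads in the saline livers and 3.37 and 3.09% in the baicalein livers. Exact (Clopper-Pearson) 95% intervals were narrow, for example 3.33 to 3.35% for saline 2 and 3.36 to 3.38% for baicalein 1, and cover counting error only. The groups overlapped, since baicalein 1 lay between the saline livers. Apoe alone gave 48.4 to 52.7% of the family's reads. Apoa1 gave 26.5% of them in both saline livers and 22.2 and 20.2% in the baicalein livers. Alb, the albumin gene, took 5.38 and 5.21% of all reads with saline and 8.64 and 7.95% with baicalein (log2 fold change 0.57 with SE 0.14, adjusted p = 0.0237 by edgeR). That call was lost without saline 1 or without saline 2 (up to 0.457) and with limma-voom. The difference between Alb and the family was not tested.

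Between treatments, 1 of the 10 genes passed the test. Apob fell with baicalein, and the other 9 did not pass at an adjusted p of 0.05 (edgeR quasi-likelihood test, Benjamini-Hochberg adjustment over 12657 genes). Of all genes tested 15.5% were called, 7.9% lower and 7.65% higher, so a count of 1 lower and 0 higher of 10 is near this background. Most members are abundant, and of the 1452 tested genes with a mean of at least 100 CPM 29.9% were called, 272 lower and 162 higher. At an unadjusted p below 0.05 there were 2 lower (Apob and Apoa1) and 1 higher (Apoa5). DESeq2 called 2 lower and 0 higher, and limma-voom called 0 in either direction. The median log2 fold change of the 10 was -0.01, against 0.01 for all tested genes.

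Apob (ENSMUSG00000020609, mm10 chromosome 12, 7977648 to 8016835, plus strand) had 1831 and 1489 CPM in saline 1 and 2 and 1017 and 1161 CPM in baicalein 1 and 2. Both baicalein livers were below both saline livers. The mean went from 1660 ± 242 CPM to 1089 ± 102 CPM (SD, n = 2 each). This was a ratio of 0.656, or -0.61 as a log2 fold change (SE 0.13, adjusted p = 0.0158 by edgeR). The difference was larger than the gap within a group, which was 0.30 on the log2 scale between the saline livers and 0.19 between the baicalein livers. Saline 2 and baicalein 1, the pair with little muscle RNA, gave a log2 ratio of -0.55 by themselves. The call was lost whenever 1 liver was left out, with adjusted p of 0.252 without saline 1, 0.0751 without saline 2, 0.149 without baicalein 1 and 0.0949 without baicalein 2, and also with limma-voom (0.0559). The direction was lower in each of these fits.

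The sequence upstream of Apob is shown because Apob was the member that passed the test. It is RefSeq sequence of GRCm38.p6 at chr12:7977427-7977647, plus strand, ending where the GENCODE gene model begins, with matched motifs in capitals.
Apob: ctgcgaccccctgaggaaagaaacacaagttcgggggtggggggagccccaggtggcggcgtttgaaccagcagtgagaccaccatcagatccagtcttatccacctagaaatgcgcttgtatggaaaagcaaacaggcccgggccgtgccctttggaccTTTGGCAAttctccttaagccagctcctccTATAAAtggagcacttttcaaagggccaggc
The capitals mark a match to the letters TTGCNNAA of C/EBP-type sites (on the reverse strand) and a TATAAA box. Over 32851 RefSeq windows of 250 bases before a gene start, 9.56% held TTGCNNAA and 12.4% held TATAAA on either strand. The other letters searched, on both strands, were an HNF4-type CAAAGTNCA, a nuclear receptor repeat AAAGGTCA, an HNF1-type GTTAAT, a CRE core TGACG and an E box CACGTG, and they are not in this window. A match describes the letters and does not show a bound site.

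Among the proteins of high density lipoprotein, Apoa1 had lower values with baicalein while Apoa2 had like values. Apoa1 (ENSMUSG00000032083, mm10 chromosome 9, 46228580 to 46230466) had 9772 and 9003 CPM with saline and 7601 and 5812 CPM with baicalein. The groups did not overlap, and baicalein 2 was the lowest. The log2 fold change was -0.49 (SE 0.15), and it missed the threshold at an adjusted p of 0.0578 by edgeR. It passed by DESeq2 (0.00419) and, by edgeR, with no filter on low counts (0.0304). It passed too with livers paired crosswise as a block chosen after seeing the data (0.0216 by edgeR). The crosswise pairs were saline 1 with baicalein 2 and saline 2 with baicalein 1. It did not pass with limma-voom (0.119) or with the replicate number as a block (0.0859 by edgeR). Nor did it pass by edgeR with median-of-ratios scaling (0.06005) or a filter at a mean CPM of at least 1 (0.0594). The log2 fold change was -0.43 without saline 1, -0.55 without saline 2, -0.70 without baicalein 1 and -0.30 without baicalein 2. Saline 2 against baicalein 1 gave a log2 ratio of -0.24.

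Apoa2 (mm10 chromosome 1, 171225054 to 171226379) had 3432 and 3464 CPM with saline and 3762 and 3195 CPM with baicalein, so the baicalein livers lay on both sides of the saline pair (log2 fold change 0.01, SE 0.12, adjusted p = 0.960 by edgeR). Apom (mm10 chromosome 17, 35128997 to 35132050) had 290 and 301 CPM with saline and 274 and 219 CPM with baicalein. Its groups did not overlap, but the log2 fold change of -0.26 (SE 0.12) did not pass (adjusted p = 0.205 by edgeR), except without baicalein 1 (0.0427). Within the baicalein pair the gap of 0.32 (log2) exceeded the difference between the groups.

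Among the regulators of lipoprotein lipase, Apoa5 had higher values with baicalein and Apoc3 overlapping ones, and neither passed the test. Apoa5 (mm10 chromosome 9, 46268633 to 46271919) had 455 and 431 CPM with saline and 603 and 496 CPM with baicalein. Both baicalein livers were above both saline livers, with a log2 fold change of 0.31 (SE 0.12) that did not pass (adjusted p = 0.121 by edgeR), except without baicalein 2 (0.0257) and with the livers paired crosswise as a block (0.0408). Apoc3 (mm10 chromosome 9, 46232933 to 46235636) had 1308 and 1208 CPM with saline and 1432 and 1183 CPM with baicalein. These groups overlapped, and the log2 fold change was 0.06 (SE 0.12, adjusted p = 0.818 by edgeR).

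The remnant ligand Apoe (mm10 chromosome 7, 19696109 to 19699188) had 18057 and 16471 CPM with saline and 17707 and 15203 CPM with baicalein, so baicalein 1 lay between the saline livers (log2 fold change -0.07, SE 0.13, adjusted p = 0.782 by edgeR). Its neighbour Apoc1 (mm10 chromosome 7, 19689481 to 19692660) had 1735 and 1631 CPM against 1798 and 1564 CPM, with the baicalein livers outside the saline range on both sides (log2 fold change -0.00, SE 0.11, adjusted p = 0.994 by edgeR). Macrophages also make Apoe and Apoc1. Of the 7 Kupffer cell and macrophage genes checked, 6 were called higher with baicalein by edgeR, against 7.65% of all tested genes. The other, Cd68, went from 15.3 to 20.2 CPM and did not pass (adjusted p = 0.0665 by edgeR). The list summed to 365 and 319 CPM with saline and 599 and 510 CPM with baicalein. None of the 7 was at 0 in any liver. The part of macrophages in the levels of Apoe and Apoc1 was not tested.

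**Figure D2:**
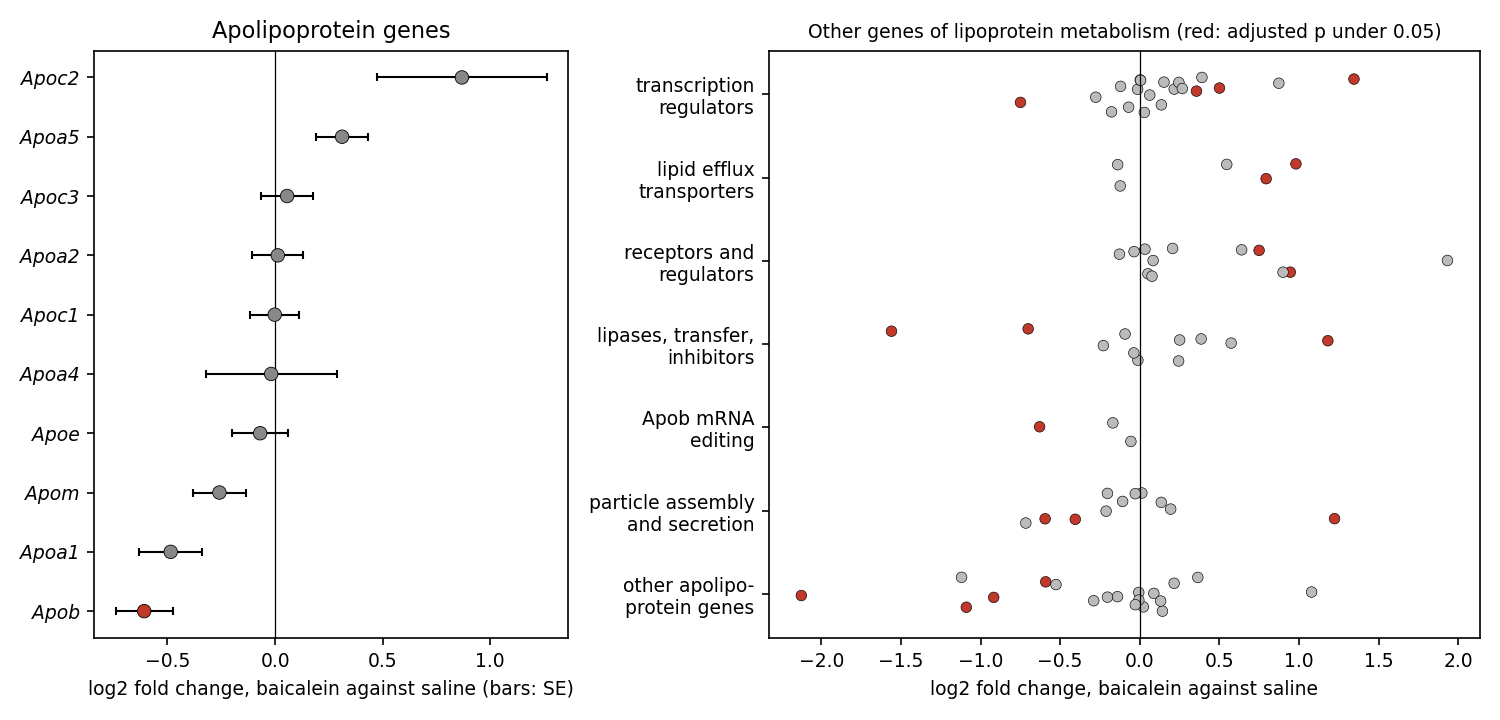
Left, log2 fold change of each apolipoprotein gene, baicalein against saline, with bars of 1 SE from the edgeR fit, where Apob (red, -0.61) is the gene past an adjusted p of 0.05. Right, log2 fold change of every tested gene of 7 other lists of lipoprotein metabolism, where each point is a gene and red points passed the same threshold.

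In all, 5 of the 10 genes had groups that did not overlap, Apob, Apoa1 and Apom lower and Apoa5 and Apoc2 higher with baicalein. Of all tested genes 59.2% had groups that did not overlap, 29.7% higher and 29.5% lower, so this share is near the background.

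Ratios between members within a liver do not depend on how libraries are scaled. The ratio of Apoa1 to Apoa2 in FPKM was 1.24 and 1.13 with saline and 0.878 and 0.790 with baicalein. Apoc3 to Apoa1 was 0.163 and 0.164 with saline, nearly equal, and 0.230 and 0.248 with baicalein. Apoa5 to Apoa1 was 0.0228 and 0.0235 against 0.0389 and 0.0418. In these 3 ratios the groups lay apart by more than the gap between livers of a group. Apoa1 to Apoe was also apart, at 0.936 and 0.945 against 0.743 and 0.661. Each of these ratios contains Apoa1, so they share its lower values and are not separate results. Lying apart was not particular to pairs with Apoa1. Apoe to Apoc1 was 3.62 and 3.51 with saline and 3.43 and 3.38 with baicalein, although neither gene passed the test. Apob to Apoe (0.0156 and 0.0139 against 0.00881 and 0.0117) and Apoc1 to Apoc2 (1194 and 1286 against 621 and 745) were apart too. So was Apoa1 to Apoa4, at 3590 and 2877 against 2164 and 2553. How often ratios lie apart over all gene pairs was not examined. The ratio of Apoa1 to Apob overlapped, at 60.2 and 68.2 with saline and 84.3 and 56.5 with baicalein, so the 2 lower genes did not keep a fixed order between the baicalein livers. An exact permutation test of 2 against 2 livers cannot go below a two-sided p of 0.333, so the ratios are given without a test.

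**Figure D3:**
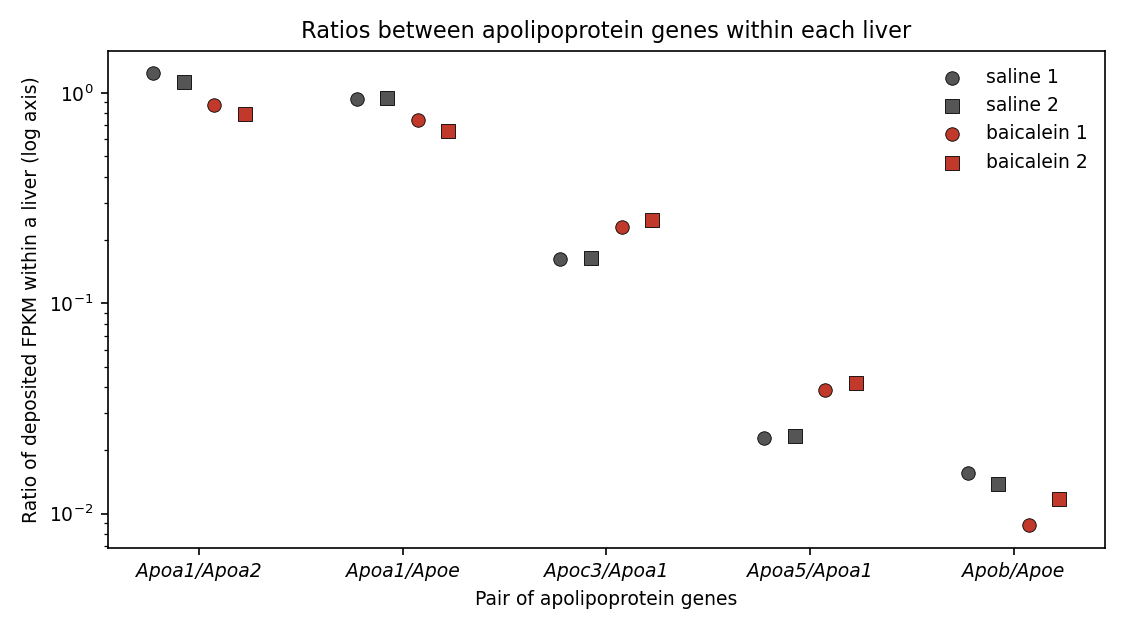
Ratio of deposited FPKM of 2 apolipoprotein genes within each liver (vertical log axis) for 5 pairs, with 1 point per liver, grey for saline and red for baicalein. The saline livers sit together at 0.163 and 0.164 for Apoc3 over Apoa1, and the baicalein livers are at 0.230 and 0.248.

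In the chromosome 9 cluster the signs of the differences were mixed, and none of its 4 members passed the test. The table starts of Apoa1, Apoc3, Apoa4 and Apoa5 span 40053 bases, and their log2 fold changes were -0.49, 0.06, -0.02 and 0.31, with SEs of 0.15, 0.12, 0.30 and 0.12. The nearest other genes in the table, within 100 kb, included 3 that were tested, Sik3, Zpr1 and Bud13. Their log2 fold changes were -0.17 (SE 0.11), -0.13 (SE 0.11) and 0.03 (SE 0.23), and 0 of the 3 passed by edgeR, at an unadjusted p below 0.05, by DESeq2 or by limma-voom. In the chromosome 7 cluster Apoe, Apoc1, Apoc4 and Apoc2 had log2 fold changes of -0.07, -0.00, 0.09 and 0.87, with SEs of 0.13, 0.11, 0.11 and 0.39, and 0 of these 4 passed by edgeR, DESeq2 or limma-voom or at an unadjusted p below 0.05. Of the 9 tested neighbours there 2 fell, Nectin2 (log2 fold change -1.02, SE 0.09, adjusted p = 2.20e-04 by edgeR), which encodes a cell adhesion molecule, and Cblc (-0.72, SE 0.14, adjusted p = 0.0105), which encodes a ubiquitin ligase. Cblc was not called without saline 2, baicalein 1 or baicalein 2 (adjusted p up to 0.0922). The lowest table position of Nectin2 is 20.5 kb from that of Apoe. Around Apoa2, 2 of 12 tested neighbours rose, Nr1i3, the CAR nuclear receptor gene (log2 fold change 1.07, SE 0.16), and Pcp4l1 (1.64, SE 0.14). Around Apom 13 neighbours were tested and 0 passed by edgeR, DESeq2 or limma-voom, with 2 higher at an unadjusted p below 0.05, and around Apob the table has no gene within 100 kb.

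**Figure D4:**
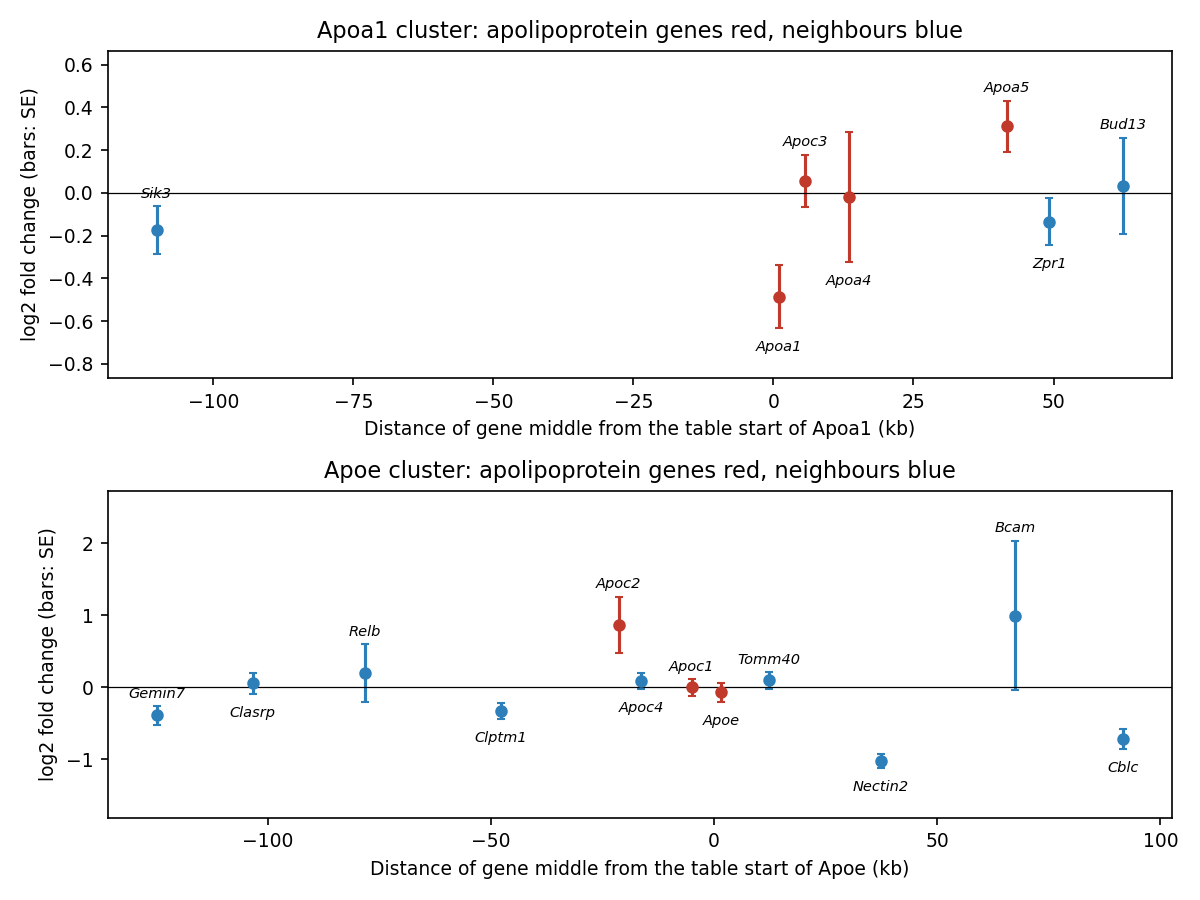
Log2 fold change (bars 1 SE) against distance from the table start of Apoa1 (top) or Apoe (bottom) for apolipoprotein genes (red) and other tested genes within 100 kb (blue). In the upper panel Apoa1 is at -0.49 and Apoa5 at 0.31, and in the lower panel Nectin2 is at -1.02 beside Apoe at -0.07.

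The upstream sequences of Apoa1 and Apoa5 are shown because these genes of 1 cluster lay on opposite sides of 0. Both are RefSeq sequence of GRCm38.p6 on the plus strand, at chr9:46228380-46228579 and chr9:46268358-46268607, with motif matches in capitals.
Apoa1: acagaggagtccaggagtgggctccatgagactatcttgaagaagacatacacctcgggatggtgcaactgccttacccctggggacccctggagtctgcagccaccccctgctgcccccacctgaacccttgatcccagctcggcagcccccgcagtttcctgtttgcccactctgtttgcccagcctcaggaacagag
Apoa5: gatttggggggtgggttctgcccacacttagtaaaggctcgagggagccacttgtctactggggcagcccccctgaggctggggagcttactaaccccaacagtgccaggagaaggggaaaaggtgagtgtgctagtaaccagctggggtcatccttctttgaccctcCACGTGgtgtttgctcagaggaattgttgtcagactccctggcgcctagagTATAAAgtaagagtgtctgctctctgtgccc
The Apoa5 sequence holds CACGTG, an E box, and TATAAA, and the share of RefSeq windows with CACGTG was 6.02%. The Apoa1 sequence holds none of the 7 motifs searched. RefSeq start windows of 8 of the 10 genes were in the table used, and TATAAA was in a window of 4 of the 8 (Apoa2, Apoa5, Apob and Apoe). Of all RefSeq windows 12.4% held it, but that share is per window, and some of these genes have more than 1 window. The Apoe window with TATAAA lies inside the GENCODE gene model, and the Apoa2 match begins at -212 from the start. Whether the family exceeds the share of all windows was not tested.

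The 2 genes with very low levels, Apoc2 and Apoa4, are also the members whose exons are mostly shared with another gene model. Apoc2 (ENSMUSG00000002992, mm10 chromosome 7, 19671579 to 19677941, minus strand) had 27 and 19 reads with saline and 46 and 46 with baicalein. Both baicalein livers were above both saline livers, at a log2 fold change of 0.87 (SE 0.39) that did not pass (adjusted p = 0.183 by edgeR). In the GENCODE M21 annotation 646 of its 813 exonic bases, 79.5%, are also exons of Gm44805, a protein-coding model on the same strand whose other exonic bases are shared with Apoc4. The table lists that model as Apoc2l, with 0 reads in all 4 livers, and 100% of its own 765 exonic bases belong to Apoc2 or Apoc4. Apoc4, of whose exons 4.69% are shared, had 789 to 1186 reads.

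Apoa4 (ENSMUSG00000032080, mm10 chromosome 9, 46240696 to 46243459, plus strand) had 68 and 63 reads with saline and 75 and 67 with baicalein. In CPM the baicalein livers, at 5.16 and 3.34, lay on both sides of the saline livers (log2 fold change -0.02, SE 0.30, adjusted p = 0.978 by edgeR). Of its 1815 exonic bases 69.8% are covered on the opposite strand, 634 by Gm47528 and 632 by Gm10680. Apoa5 has 20.8% of its exonic bases under an antisense model, Gm47544, and the other 7 members have 0%. Apoa4 and Apob are also made by enterocytes. Of the 7 enterocyte genes checked Sis and Cdx2 were at 0 in every liver, and the list summed to 39.9 and 44.5 CPM with saline and 21.1 and 55.0 CPM with baicalein. Within it, Fabp2 had 30.2 and 32.0 CPM with saline and 15.5 and 16.6 CPM with baicalein (log2 fold change -0.96, adjusted p = 9.19e-04 by edgeR). The other 3 tested genes of the list did not pass. Of these, Lgals4 and Vil1 were highest in baicalein 2, at 29.5 and 7.13 CPM.

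The same relation was described over the table. Of 15350 genes with no exonic overlap in GENCODE M21, 30.4% had no read in any liver and 2.31% reached a mean of 100 FPKM. Of 627 genes with at least 50% of their exonic bases shared, 54.9% had no read and 0.319% (2 genes) reached 100 FPKM. The share with no read was 64.6% of 421 genes overlapped to that extent on the same strand, as Apoc2 is. It was 39.3% of 196 genes overlapped on the opposite strand, as Apoa4 is. Of these 196 genes 0.51% reached a mean of 100 FPKM. Their median was 0.0296 FPKM, against 0.279 FPKM for genes with no overlap. How the authors treated reads that fall on more than 1 gene model, and whether they counted by strand, the sources used here do not say. The part of shared exons in the low values of Apoc2 and Apoa4 was not tested, and both values carry this limit.

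**Figure D5:**
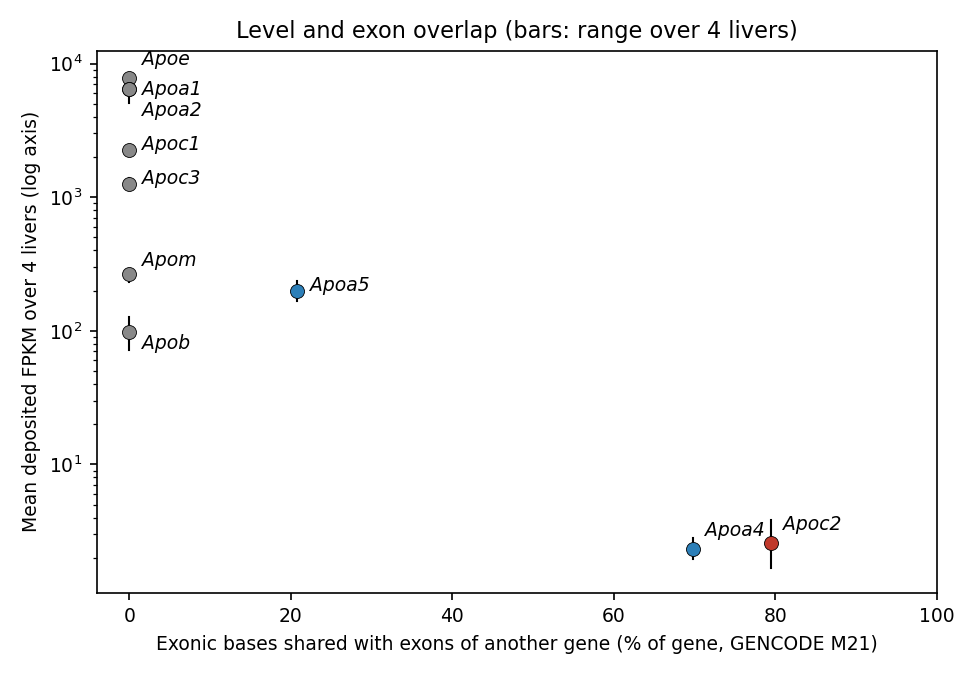
Mean deposited FPKM over 4 livers (vertical log axis, bars for the range) against the percentage of a gene's exonic bases shared with exons of another GENCODE M21 gene, for the 10 apolipoprotein genes (red, same strand; blue, opposite strand; grey, none). Apoc2 at 79.5% and Apoa4 at 69.8% lie near 2.60 and 2.34 FPKM, and the 7 genes at 0% are between 98.1 and 7863 FPKM.

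Among genes that load lipid onto Apob, the few calls went both ways. Of 11 tested genes of particle assembly and secretion, 1 rose and 2 fell (median log2 fold change -0.11). For scale, edgeR called 7.65% of the 12657 genes higher and 7.9% lower. At a mean of at least 100 CPM it called 29.9% in either direction. Whether this list, or any list below, exceeds those shares was not tested. Mttp, encoding the microsomal transfer protein that lipidates Apob, went from 528 ± 21.2 to 399 ± 49.4 CPM (SD, n = 2 each; log2 fold change -0.40, SE 0.12, adjusted p = 0.0480 by edgeR). Pla2g12b, needed for large very low density particles, fell by 0.59 on the log2 scale (SE 0.11). Tm6sf2, a factor in the lipidation of these particles, had 17.2 ± 2.97 CPM with saline and rose to 40.0 ± 2.83 (log2 fold change 1.22, SE 0.14, adjusted p = 7.24e-04). Cideb, which helps to lipidate such particles, had 2 to 7 reads and was not tested, and 76.3% of its exonic bases lie under Nop9 on the opposite strand. Of the 3 genes for editing of Apob mRNA, Apobec1, the enzyme that creates the stop codon of Apob48, had 25.6 ± 1.68 CPM with saline and fell to 16.6 ± 2.74 (log2 fold change -0.63, SE 0.14, adjusted p = 0.0194). A1cf and Rbm47, its cofactors, had log2 fold changes of -0.06 and -0.17 and did not pass. The calls of Mttp and Apobec1 were lost without saline 1, without saline 2 or without baicalein 2 (adjusted p up to 0.384 and 0.136) and with limma-voom (0.0909 and 0.0533). That of Mttp was lost also with a filter at a mean CPM of at least 1 (0.0510).

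Of 11 tested genes for plasma lipases, lipid transfer and their inhibitors, 1 rose and 2 fell (median log2 fold change -0.01). Angptl4, an inhibitor of lipoprotein lipase, stood at 89.6 ± 7.43 CPM with saline and fell to 30.4 ± 1.06 (SD, n = 2 each; log2 fold change -1.56, SE 0.10, adjusted p = 2.60e-05 by edgeR). Angptl8, which takes part in the control of the same lipase, rose to 104 ± 20.1 from 45.7 ± 6.48 CPM (a log2 fold change of 1.18, SE 0.17). Lipg, the endothelial lipase that acts on high density lipoprotein, fell to 11.3 ± 1.27 from 18.3 ± 3.89 CPM (by edgeR -0.70 as log2 fold change, SE 0.18, adjusted p = 0.0296). Angptl8 was not called without saline 1 (adjusted p = 0.0556), and Lipg was not without saline 2, baicalein 1 or baicalein 2 (up to 0.207) or with DESeq2 or limma-voom.

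Of 12 tested receptors and their regulators, 2 rose and 0 fell by edgeR, with 3 higher and 0 lower at an unadjusted p below 0.05, 3 and 0 by DESeq2 and 2 and 0 by limma-voom (median log2 fold change 0.15). Mylip, a ubiquitin ligase that limits lipoprotein uptake, rose to 20.6 ± 3.28 from 10.7 ± 0.0360 CPM (a log2 fold change of 0.95, SE 0.15).

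Of 5 lipid efflux transporters, 2 rose and 0 fell by edgeR, with 3 higher and 0 lower at an unadjusted p below 0.05 and 2 and 0 by both other tools (median log2 fold change 0.55). They were Abcg5 (69.5 ± 6.83 to 137 ± 15.6 CPM, log2 fold change 0.98, SE 0.12) and Abcg8 (109 ± 5.58 to 190 ± 22.3 CPM, 0.79, SE 0.11), which form the sterol exporter of bile. Abca1, which lipidates Apoa1 at the cell surface, had a log2 fold change of -0.14 (SE 0.09) and did not pass.

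Of 20 tested transcription regulators of apolipoprotein genes, 3 rose and 1 fell (median log2 fold change 0.10). Srebf1, the activator of lipogenic genes, rose from 161 ± 23.9 to 410 ± 43.6 CPM (SD, n = 2 each; log2 fold change 1.34, SE 0.13). Creb3l3, a liver factor for triglyceride genes including Apoa4 and Apoa5, fell to 252 ± 16.2 from 424 ± 22.6 CPM (a log2 fold change of -0.75, SE 0.10). Nr1d1 (log2 fold change 0.50, SE 0.10), a repressor of the circadian loop, and Esrra (0.36, SE 0.09), a factor for mitochondrial genes, rose. Hnf4a, the hepatocyte factor that binds many apolipoprotein promoters, had 760 and 822 CPM with saline and 849 and 765 CPM with baicalein, which overlapped (log2 fold change 0.03, SE 0.11, adjusted p = 0.901 by edgeR). Creb3l3 missed without saline 2 (adjusted p = 0.0504), Nr1d1 without saline 1, saline 2 or baicalein 1 (up to 0.118), and Esrra without any 1 of the 4 livers (up to 0.192) and with DESeq2 and limma-voom.

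Of 19 other tested apolipoprotein genes, counting the serum amyloid A proteins of high density lipoprotein, 4 fell and 0 rose by edgeR, with 5 lower and 1 higher at an unadjusted p below 0.05 (median log2 fold change -0.03). DESeq2 called 4 lower and 1 higher, and limma-voom 4 and 0. Saa1 had 96.9 ± 13.1 CPM with saline and fell to 22.2 ± 0.868 (SD, n = 2 each; log2 fold change -2.12, SE 0.12, adjusted p = 9.89e-06). Saa2 (-1.09, SE 0.12) and Saa3 (-0.92, SE 0.21), of the same acute phase family, fell as well. Apoo, a protein of the mitochondrial inner membrane despite its name, fell by 0.59 on the log2 scale (SE 0.12). Saa1 and Saa2 are near-identical copies, so their single values are uncertain. Saa3 missed without any 1 of the 4 livers (adjusted p up to 0.119) and Apoo without saline 1, baicalein 1 or baicalein 2 (up to 0.0686).

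The genes most like 2 of the members over the 4 livers were found by the root mean square difference of centred log2 CPM among 2795 other genes with a mean of at least 50 CPM. For Apoe, the member of highest level, they were Rplp2 (0.00752), Ebp (0.0120) and Ttr (0.0137). For Apob, the member of smallest p, they were Odc1 (0.0412), Gabarapl2 (0.0591) and Cox5b (0.0716). With 4 livers such a likeness is a description of these libraries.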

How the data were processed

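RNA was measured by sequencing in 4 livers. Per the labels' protocols, libraries were made from total RNA with a SMARTer mRNA kit, and per the submitters' processing notes the build was mm10. Aligner, counter and annotation: not given in the sources used here. Whole-number read counts and FPKM per gene were deposited by the authors for each liver, and for the 10 genes the FPKM equal count over length and library total to within 0.00387%. Table positions equal those of GENCODE M21 (mm10) for 514 of 21851 matched gene IDs and 0 of the 10, so printed positions are those of GENCODE M21 by gene ID, and distances between genes are the table's own.

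Counts were filtered with filterByExpr (12657 genes), scaled by the TMM method, then tested in R 4.3.3 by edgeR 4.0.16 (quasi-likelihood with robust shrinkage, baicalein against saline, two-sided, Benjamini-Hochberg over all tested genes, threshold 0.05, 2 residual degrees of freedom before sharing between genes). CPM are counts divided by the scaled library size. Alternatives used DESeq2 1.42.0, limma-voom (limma 3.58.1), other scaling and filters, blocks and each liver left out. Members and lists were chosen with earlier results of these data known. Genes named from a list are those past the threshold, or the 4 of smallest p where more than 4 passed, besides genes singled out by role after their values were seen (Abca1, Hnf4a, A1cf, Rbm47, Cideb, Apoc4, Alb). Protein sequences and the start windows of Apoc1 and Apoc3 were not used here. Some genes that the rule would name are not reported here. Tf, on the hepatocyte list, was not analysed here. Stellate cell, sinusoidal endothelial and red cell markers also differed between groups, with 3 of 5 and 5 of 5 called higher and 3 of 3 called lower by edgeR. Also called lower were 1 bile duct and 1 enterocyte gene. Of the skeletal muscle, adipocyte, neutrophil and pancreatic acinar lists (the last 3 at most 11.7, 5.91 and 1.41 CPM in a liver), 0 genes passed by edgeR, 0 at an unadjusted p below 0.05 and 0 by DESeq2 or limma-voom.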

Additional observations from a re-analysis of the deposited data

How the results depend on the processing

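With each liver left out in turn, 521 to 665 genes were called higher and 535 to 663 lower in place of 968 and 1000. Of the 10 apolipoprotein genes 0 to 1 were then called higher and 0 to 2 lower, and of the pathway genes 7 to 12 higher and 5 to 7 lower in place of 9 and 10. The log2 fold change of Apob then ran from -0.76 to -0.46, of Apoa1 from -0.70 to -0.30, of Apoa5 from 0.15 to 0.45 and of Apom from -0.44 to -0.10. Apoa2 (-0.12 to 0.13), Apoa4 (-0.37 to 0.27), Apoc1 (-0.12 to 0.10), Apoc3 (-0.10 to 0.19) and Apoe (-0.20 to 0.04) took either sign, and Apoc2 ran from 0.61 to 1.09. Such fits have 1 liver in a group, assumed to vary like the other group, and fewer degrees of freedom.

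DESeq2 called 2 members lower, with Apoa1 at -0.49, and so did the fit with no filter on low counts, with Apoa1 at -0.50. With limma-voom 632 genes were higher, 0 members were lower and Apob was at -0.60. With the replicate number as a block, 531 genes were higher and 601 lower, 0 members were lower, 6 pathway genes were lower and Apob was at -0.60 (adjusted p = 0.0802 by edgeR). Deviations of same-numbered livers from their group means correlated at -0.742 over 12657 genes. With 2 livers in each group the crosswise correlation is then 0.742 by construction, so these values cannot show whether the numbers pair the livers. Livers paired crosswise, an alternative chosen after seeing the data, gave 1809 genes higher and 1689 lower, 1 member higher (Apoa5, 0.30) and 2 lower (Apob and Apoa1, the latter at -0.50), and 18 pathway genes higher. Saline 2 against baicalein 1 alone, also chosen after seeing the data and without a test, gave log2 ratios of -0.24 for Apoa1, 0.49 for Apoa5 and 0.25 for Apoc3. Outside the muscle list and mitochondrial genes, the family took 3.60% of reads with saline in place of 3.44%. By TPM, 7 in place of 5 neighbouring pairs in the order of levels had ranges that did not overlap. The causes of these differences were not tested. Median-of-ratios scaling moved no call of a member. At 63 to 75 reads for Apoa4 and 19 to 46 for Apoc2, counting error limits both.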
